A study of Mus musculus with 8 samples.

Results

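Collagens are the proteins of the extracellular matrix that wind 3 chains, each built on repeats led by glycine, into a triple helix. The collagen genes of the mouse were selected by symbol, as all protein-coding genes named Col, a number, the letter a and a number, in the gene list of build GRCm38.p6 (mm10). The rule found 44 of the 21887 protein-coding genes. The data are ATAC-seq by their titles and library protocol, although other label fields name RNA as the material. The assay marks DNA open to the transposase Tn5, and was run on nuclei of induced pluripotent stem cells of a clonal mouse line with the FUCCI2 cell cycle reporters, grown on irradiated feeder cells in serum-containing medium to which LIF and the 2i inhibitors had been added. The 8 libraries formed 4 groups of 2 replicates: cells shaken off in mitosis after 6 hours in nocodazole (200 ng/ml), cells 1 hour and 3 hours after release from that block, and untreated asynchronous cells. All groups share the line, the feeder culture and an input of 50000 cells per library.

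A single atlas of 76872 accessible regions, drawn up across the series, was analysed. It gives positions only and holds no value for a library. The counts below therefore say where chromatin was open in at least part of the series, give no difference between mitotic, released and asynchronous cells, and have an unknown sequencing depth. No test is given, since genes are not replicates of a condition. Counts of collagen genes are set beside the same counts over all protein-coding genes, and 95% Wilson intervals cover counting error only.

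Fibrillar collagens, of which types I, III and V are the main products of fibroblasts, assemble into the banded fibres of skin, tendon and bone. Type IV collagen, made from the 6 Col4a genes, forms instead the flexible sheet that underlies epithelia, together with laminin, nidogen and perlecan. Basement membranes with type IV collagen are the earliest organised matrix of the mammalian embryo, whereas fibrillar collagens are made mostly by mesenchymal cells. Other classes decorate fibrils, form beaded filaments or anchor epithelia, and some span the cell membrane. The Col4a genes lie in 3 neighbouring pairs whose starts face away from each other, so that the genes of a pair share the stretch of DNA between them.

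Of the 44 collagen genes, 21 (47.7%, interval 33.8 to 62.1%) had a region within 1 kb of an outer limit of the gene, against 62.0% of all protein-coding genes. The share for all genes lay just inside the upper bound of this interval, and whether it does so depends on the setting. With the distance cut to 500 bp, and likewise with regions of at least 150 bp only, 18 collagen genes (40.9%, interval 27.7 to 55.6%) counted, against 57.8% and 59.2% of all genes, both above the interval. With shared regions counted as 1 locus (20 of 43, interval 32.5 to 61.1%), the 62.0% also lay above. The share of all genes lay inside at 2 kb (interval 42.2 to 70.3%, against 67.0%). It also did so at the start only (30.5 to 61.8%, against 59.0%) and without the narrowest regions (33.8 to 62.1%, against 61.7%). Fibrillar fibroblast collagen genes (Col1a1, Col1a2, Col3a1, Col5a1 and Col5a2) had such a region in 3 of 5 cases, and Col4a genes in 3 of 6. Both intervals were wide, 23.1 to 88.2% and 18.8 to 81.2%, and overlapped over most of their length, and both shares are near that of all genes or of the collagen genes as a whole. At 500 bp, the count was 1 of 5 for the fibrillar fibroblast genes and still 3 of 6 for the Col4a genes. Inside the genes, 1 of 5 fibrillar fibroblast genes and 6 of 6 Col4a genes held a region away from their ends. The 20% longest protein-coding genes held one in 87.6% of cases and all protein-coding genes in 43.2%. The Col4a genes were also the longer ones, with a median length of 38.2 kb for the fibrillar fibroblast genes and 138 kb for the Col4a genes, and the part of length in these counts was not tested.

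**Figure D1:**
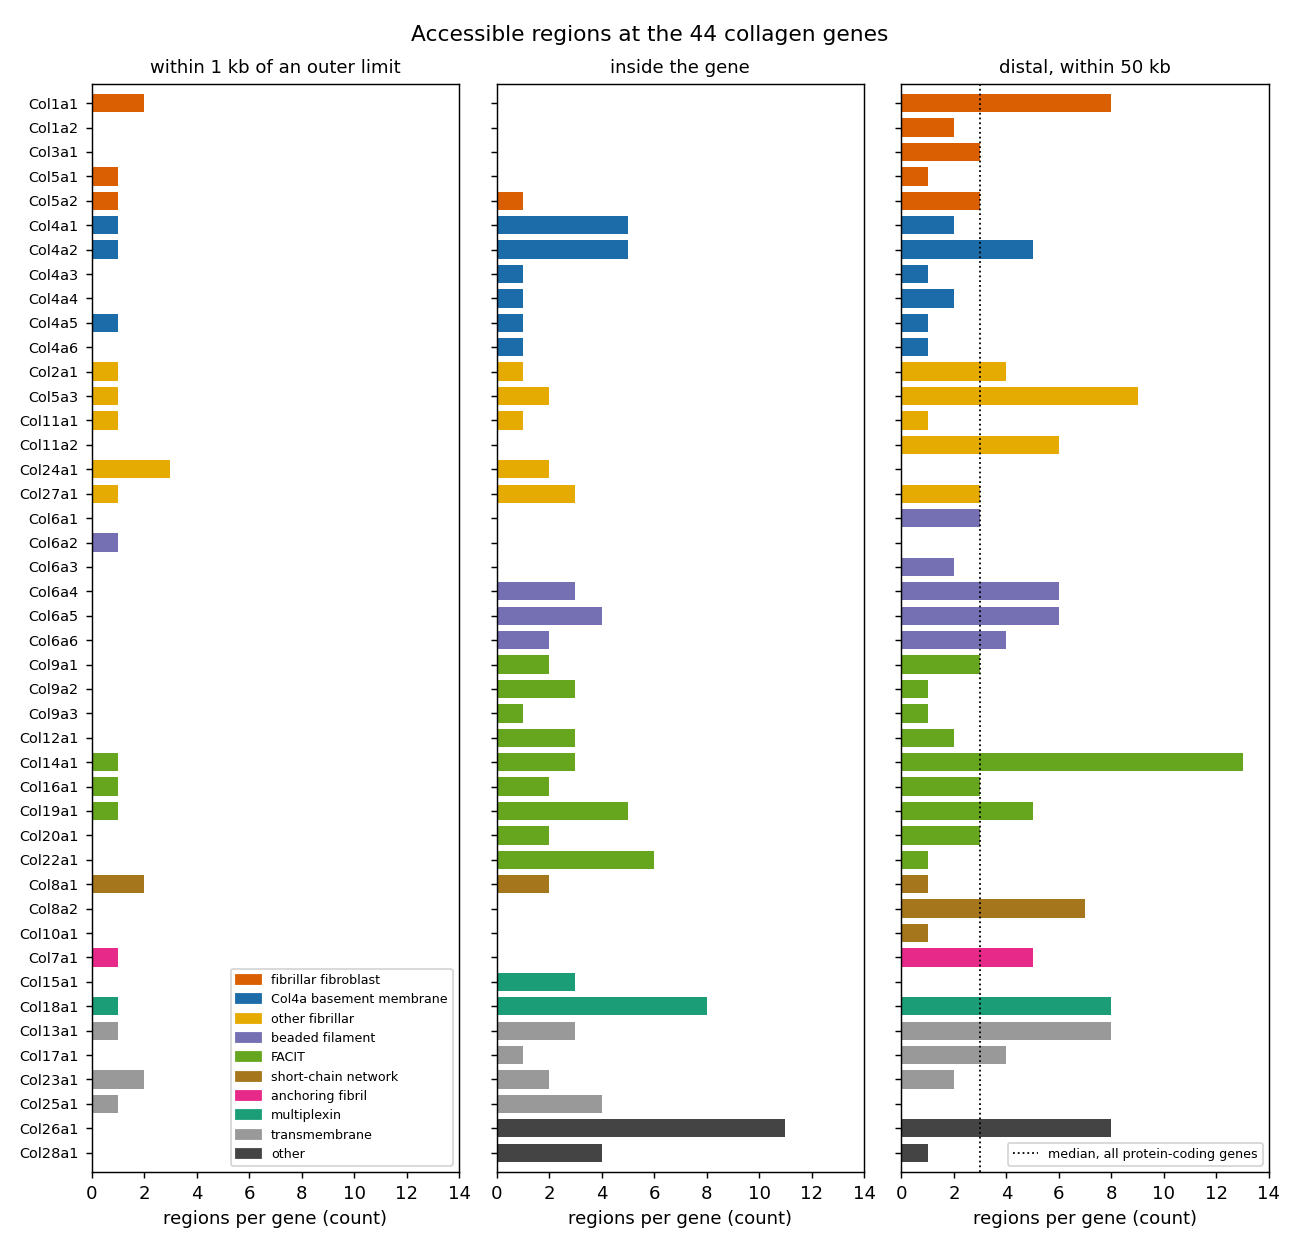
Number of accessible regions per collagen gene within 1 kb of an outer limit, inside the gene, and distal within 50 kb, with genes down the page grouped by class and coloured as in the legend. The dotted line is the median of 3 distal regions over all protein-coding genes. Col26a1 had 11 regions inside and Col14a1 13 distal regions, the highest counts of their panels.

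Col1a1 and Col1a2 encode the chains of type I collagen, the main protein of bone, skin and tendon. At Col1a1 a region of 573 bp lay 638 bp inside the lower limit (chromosome 11, 94936862 to 94937434), and a region of 256 bp lay 607 bp inside the upper limit. Neither reached the limit itself, and the gene held no further region over its 16.8 kb. It had 8 distal regions, the most of the fibrillar fibroblast genes, of 113 to 571 bp. The nearest of these, of 428 and 335 bp, lay 4.55 and 5.19 kb beyond the upper limit. The farthest, of 281 and 178 bp, fell within the neighbouring gene Ppp1r9b.

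Col1a2 had no region at its ends and none inside its 35.9 kb. Its only regions within 50 kb were of 105 and 101 bp, 4.27 and 9.09 kb past its far end. The nearest region to its start lay 40.2 kb away. The partner chains of type I collagen thus differed, with 10 regions of the 3 kinds at Col1a1 and 2 at Col1a2.

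Col3a1, which encodes the type III collagen of reticular fibres, likewise had no region at its ends or inside. The nearest region to its start, of 498 bp, lay 42.7 kb upstream, and regions of 688 and 226 bp lay past its far end, the nearer of them 7.96 kb away. These last regions also counted for Col5a2, the next gene, from which Col3a1 is separated by 24.6 kb. They were the regions shared by the pair, at chromosome 1, 45357661 to 45358348 and 45359735 to 45359960.

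Col5a1 and Col5a2 encode chains of type V collagen, which starts the growth of type I fibrils. Col5a1 had the widest region at an end of any collagen gene, 1252 bp across the start of the gene (chromosome 2, 27885881 to 27887132). Nothing else was found in its 153 kb, and its only distal region was of 113 bp, 41.5 kb upstream. Col5a2 had a region of 199 bp lying 812 bp inside its upper limit, 1 region of 155 bp inside, and 3 distal regions of 159 to 688 bp. Of the fibrillar fibroblast genes, Col5a1 alone had a region across an outer limit.

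The cultures contained irradiated feeder cells. Such feeders are commonly embryonic fibroblasts, which make fibrillar collagens, but the labels name no cell type and the sources used here do not state their share in the libraries. Of 20 fibroblast markers other than collagens, 9 (45%, interval 25.8 to 65.8%) carried a region near a limit. These were Fn1, Fbn1, Twist1, Twist2, Snai2, Tagln, Vim, Mmp2 and Sparc. Dcn, Lum, Postn, Thy1, Pdgfra, Pdgfrb, Fap, Prrx1, Acta2, S100a4 and Loxl1 had none. The share of all protein-coding genes, 62.0%, lies within that interval. Of 15 pluripotent cell markers, 14 (93.3%) had one. The exception, Esrrb, held 16 regions inside the gene and had 17 of the 3 kinds, the most of these 15 markers. The median of distal regions was 3 for the fibroblast markers and 8 for the pluripotent markers, beside 3 for all protein-coding genes. Whether feeder cells gave the regions at Col1a1, Col5a1 and Col5a2 was not tested.

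**Figure D2:**
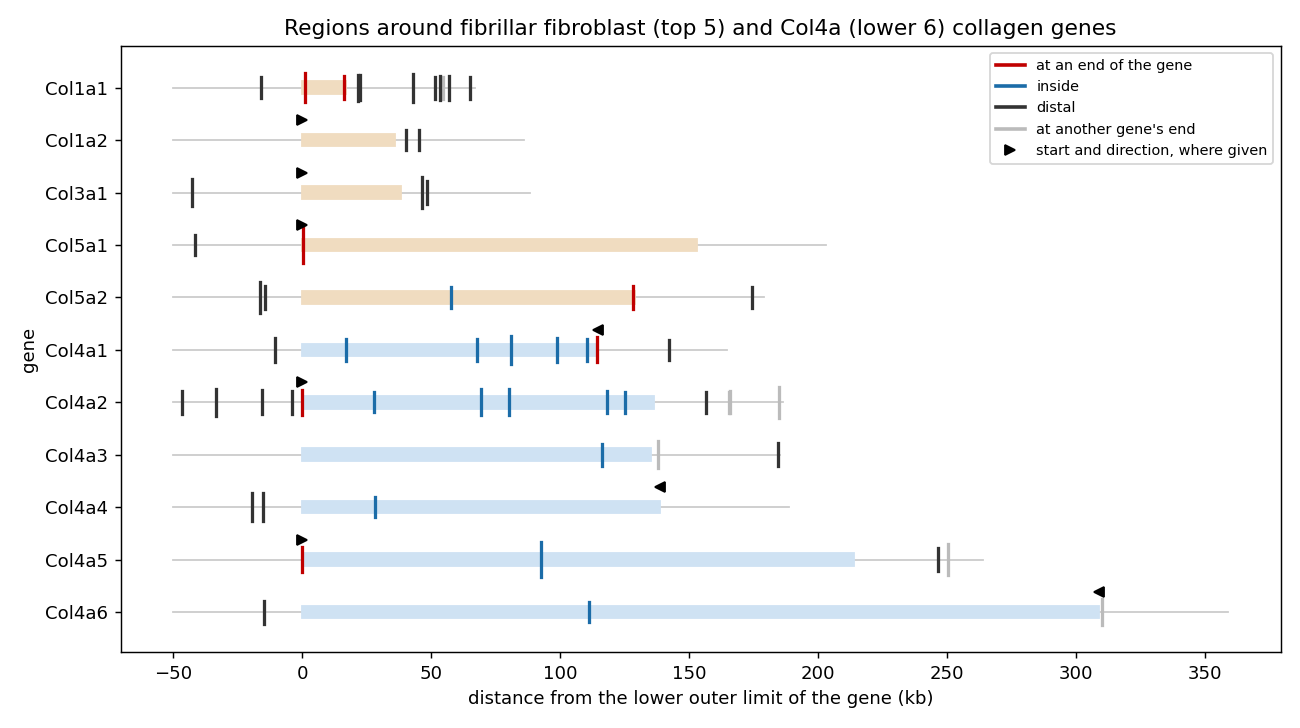
Position of each region around the fibrillar fibroblast and Col4a genes, as distance in kb from the lower outer limit of the gene, with the gene as a pale bar and 50 kb on each side. Ticks are regions, taller for wider ones up to 1000 bp, and triangles give the start and direction where the reference tables hold them. Col4a1 and Col4a2 hold 5 regions each inside the gene, and Col1a2 and Col3a1 hold none.

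Col4a1 and Col4a2 encode the type IV chains found in nearly all basement membranes. The annotated genes overlap by 85 bp and run in opposite directions on chromosome 8. A single region of 366 bp, at 11312470 to 11312835, lay across the annotated starts of both genes. Its upper edge was 54 bp inside the outer limit of Col4a1. It counted for both genes, which makes 2 of 5 loci rather than 3 of 6 genes of the Col4a class. Both genes also held regions along their length. In Col4a1 these were 5 regions of 178 to 509 bp, of which 4 lay 3.97, 15.5, 33.4 and 46.5 kb from the start and the last 16.9 kb from the far end. In Col4a2 they were 5 regions of 86 to 418 bp, from 27.6 kb after the start to 11.3 kb before the far end. Per length, Col4a1 had 4.37 and Col4a2 3.66 regions per 100 kb. The other 4 Col4a genes had 0.324 to 0.740 per 100 kb, below the values of this pair. Over the longest protein-coding genes, those of 57.1 kb or more, the median was 2.21 per 100 kb, with a range of 0 to 57.3. The pair thus lay above that median and the other Col4a genes below it, all within the range. Col4a1 and Col4a2 are neighbours at the same locus, so their values are not separate observations.

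Col4a3 and Col4a4, which encode chains of the kidney's glomerular basement membrane, overlap by 114 bp. No region lay at an end of either gene. The nearest region to the start of Col4a4 was 110 kb away, the longest such distance among the collagen starts. Each gene held 1 region inside, of 162 bp in Col4a3 and of 80 bp in Col4a4. A region of 479 bp stood 2.67 kb beyond the upper limit of Col4a3, at the end of the neighbouring gene Mff.

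Col4a5, another chain of the glomerular basement membrane, and Col4a6, found with it in smooth muscle, are separated by 1.28 kb on the X chromosome. A region of 378 bp covered the start of Col4a5 (141475132 to 141475509). It began 1.04 kb from the outer limit at the start of Col4a6 and so fell just outside the limit of 1 kb for that gene. Col4a5 also held the widest region inside any collagen gene, of 1288 bp, 91.7 kb into the gene. Col4a6, with 309 kb the longest of the class, held 1 region of 103 bp. Of the 3 pairs, 1 thus had a region counted for both genes, 1 had none at an end, and 1 had a region counted for a single gene.

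Around the genes, the median number of distal regions, defined as outside the gene, within 50 kb and at no protein-coding gene's end, was 3 (range 1 to 8) for fibrillar fibroblast genes and 1.5 (range 1 to 5) for Col4a genes. Over all 44 collagen genes it was 3 (range 0 to 13), and 3 over all protein-coding genes. Col4a2 owed 4 of its 5 distal regions to the inside of Col4a1. The Col4a median was 3 with windows of 100 kb, where that of the fibrillar fibroblast genes was 5.

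The start sequences of some of these genes are given as examples, which do not stand for all promoters with or without a region. They are taken from RefSeq (GRCm38.p6), run from 250 bases before to 50 after an annotated start, and are written 5′ to 3′ on the strand of the gene. Capitals mark matches, on either strand, to TATAAA, the TATA box, to CCAAT, the CCAAT box (ATTGG on the other strand), and to GGGCGG, the GC box (CCGCCC on the other strand). Windows with a region are Col5a1 (chr2:27886175-27886474, plus strand), added after its values were seen, Col4a1 (chr8:11312777-11313076, minus strand) and Col4a2 (chr8:11312555-11312854, plus strand). Windows without one are Col1a2 (chr6:4505368-4505667, plus strand) and Col3a1 (chr1:45311288-45311587, plus strand). The Col4a1 and Col4a2 windows overlap by 78 bases and are read from opposite strands.
Col5a1: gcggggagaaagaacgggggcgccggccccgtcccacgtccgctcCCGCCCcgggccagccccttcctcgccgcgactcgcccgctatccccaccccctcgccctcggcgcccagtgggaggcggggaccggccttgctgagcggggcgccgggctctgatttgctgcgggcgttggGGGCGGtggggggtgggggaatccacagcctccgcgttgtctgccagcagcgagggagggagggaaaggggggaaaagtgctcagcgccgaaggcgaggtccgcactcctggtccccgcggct
Col1a2: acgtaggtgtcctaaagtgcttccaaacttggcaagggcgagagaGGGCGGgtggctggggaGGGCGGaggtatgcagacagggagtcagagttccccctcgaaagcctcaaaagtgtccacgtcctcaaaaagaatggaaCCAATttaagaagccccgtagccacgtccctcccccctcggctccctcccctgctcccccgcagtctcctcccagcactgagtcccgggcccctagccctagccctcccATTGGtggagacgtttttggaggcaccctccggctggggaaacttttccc
Col3a1: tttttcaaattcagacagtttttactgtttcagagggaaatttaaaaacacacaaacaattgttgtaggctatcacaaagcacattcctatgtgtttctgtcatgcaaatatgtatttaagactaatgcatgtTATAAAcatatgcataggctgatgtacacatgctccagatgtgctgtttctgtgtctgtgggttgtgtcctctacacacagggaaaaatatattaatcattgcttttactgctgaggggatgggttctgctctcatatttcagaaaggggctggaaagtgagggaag
Col4a1: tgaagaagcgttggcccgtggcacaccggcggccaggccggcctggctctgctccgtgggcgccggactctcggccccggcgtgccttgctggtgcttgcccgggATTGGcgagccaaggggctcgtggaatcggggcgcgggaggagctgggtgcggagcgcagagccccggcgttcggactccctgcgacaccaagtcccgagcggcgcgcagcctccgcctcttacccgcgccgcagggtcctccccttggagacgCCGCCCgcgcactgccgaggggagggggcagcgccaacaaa
Col4a2: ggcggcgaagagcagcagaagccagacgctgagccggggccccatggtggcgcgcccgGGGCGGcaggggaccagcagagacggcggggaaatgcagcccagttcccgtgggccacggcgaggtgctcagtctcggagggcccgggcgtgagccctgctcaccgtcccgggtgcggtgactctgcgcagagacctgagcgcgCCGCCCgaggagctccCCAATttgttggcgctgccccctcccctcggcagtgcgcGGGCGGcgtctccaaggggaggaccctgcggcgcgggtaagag

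The 3 printed starts with a region were rich in CpG, the dinucleotide that is depleted from most of the genome and kept in CpG islands. The ratio of observed to expected CpG was 0.809 in the Col5a1 window, with 34 CpGs, 0.902 in that of Col4a1, with 37, and 0.818 in that of Col4a2, with 33. A region covered 300 of the 300 bases at Col5a1, 59 at Col4a1 and 281 at Col4a2. The printed windows without a region were lower, at 0.470 with 13 CpGs for Col1a2 and 0 with no CpG for Col3a1. Not all collagen windows were divided in this way. That of Col24a1, touched by a region, had a ratio of 0.270, and that of Col8a2, untouched, one of 0.832. The Col3a1 window held 1 TATAAA match and no GGGCGG, and its GC content was 37.7%, against 75% in the Col5a1 window. The Col1a2 window held 2 GGGCGG and 2 CCAAT matches, so a start without a region can hold these letters. A match is a description of the sequence and not a binding site.

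Annotated starts in the reference tables were found for 35 collagen genes, with 38 windows. Col1a1, Col2a1, Col4a3, Col5a2, Col9a3, Col12a1, Col14a1, Col22a1 and Col26a1 were not among them. A region touched 16 of the 38 windows (42.1%), against 54.8% of windows of all protein-coding genes. By gene this was 16 of 35, against 57.8%. The outer limit at the start had a region within 1 kb in 16 of these 35 genes and the far limit in 2, against 59.0% and 11.7% of all protein-coding genes. The far limits were those of Col13a1 and of Col23a1, where the region of 1097 bp was also at the end of the gene Phykpl.

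The 38 collagen windows had a lower median CpG ratio than those of all genes, 0.456 against 0.567. Their median CpG count was 11.5 against 13, and their median GC content 59.8% against 56.3%. Among collagen windows with a ratio of at least 0.6, 8 of 11 were touched by a region, against 88.2% of such windows of all genes. Below 0.6, 8 of 27 were touched (29.6%), against 24.3%. Within classes of CpG the collagen shares were close to the background from 0.2 to 0.8 and are no result about collagens. Of the 8 collagen windows under 0.2, none was touched, beside 4.60% of all such windows. Between 0.8 and 1, 4 of 6 were touched, beside 90.5%. The untouched ones were Col8a2, whose nearest region lay 8.58 kb from the start, and Col13a1, with a region 1.27 kb away.

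**Figure D3:**
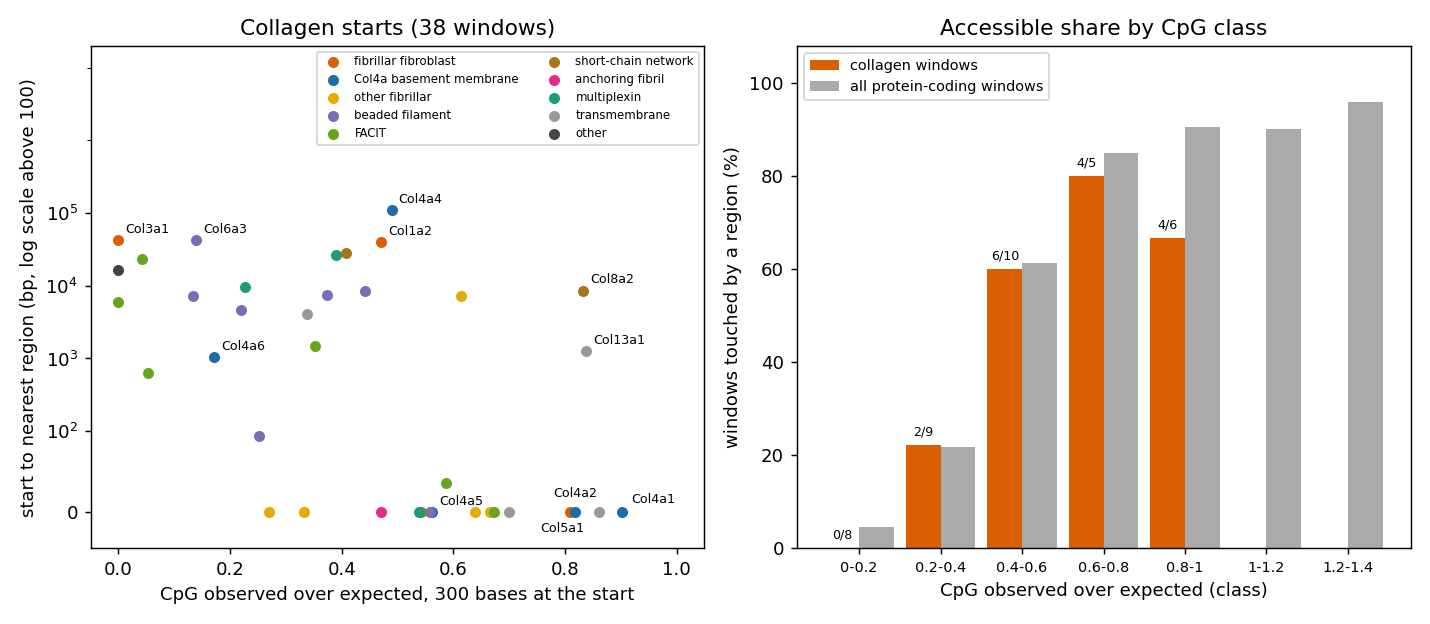
Left, ratio of observed to expected CpG in the 300 bases at each collagen start against the distance from the start to the nearest region, in bp on an axis that is logarithmic above 100. Right, percentage of start windows touched by a region in each class of CpG ratio, for collagen genes (orange, with counts) and all protein-coding genes (grey). Over all genes the share is 4.60% in the lowest class and above 90% from 0.8 on, with 4 of 6 collagen windows touched between 0.8 and 1, and Col3a1, Col1a2, Col6a3 and Col4a4 stand more than 40 kb from any region.

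In the search for the TATA box, 13.2% of collagen windows and 12.6% of all windows held a match. The CCAAT box was in 34.2% of collagen windows and 38.2% of all. The GC box, GGGCGG, was in 60.5% of collagen windows and 46.2% of all. In collagen windows touched by a region it was in 14 of 16, and in untouched ones in 9 of 22. The TATAAA match was in 0 of 16 touched and 5 of 22 untouched collagen windows, namely those of Col3a1, Col10a1, Col11a2, Col13a1 and Col17a1. Over all genes the same directions were seen, with GGGCGG in 69.1% of touched and 18.5% of untouched windows and TATAAA in 5.82% and 20.8%.

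A start more than 40 kb from any region, a distance chosen after the values were seen, was found for 4 of 38 collagen windows, against 7.79% of all windows. These were Col1a2, Col3a1, Col4a4 and Col6a3. Col1a2, at 40.2 kb, lies just beyond the chosen distance, and the count is near the background and no result about collagens.

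Among the remaining fibrillar collagens, 5 of 6 genes (83.3%, interval 43.6 to 97.0%) had a region near a limit. The interval includes the 62.0% of all protein-coding genes, so the count is no result about this class. Col5a3, the third type V chain, had 288 bp across its start, 2 regions inside and 9 distal ones. Col11a1, which encodes a minor fibrillar chain of cartilage, had 592 bp across its start. Col27a1, a fibrillar chain of cartilage, had a region of 104 bp near its outer limit, while 523 bp covered its annotated start further in. Col24a1 had 3 regions of 175 to 294 bp at its start and none distal. Col2a1, the main cartilage collagen, had 126 bp at its upper limit. Col11a2, the partner of Col11a1, had none at an end or inside and 6 distal.

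Type VI collagen, the beaded filament of muscle and skin, carried a region near a limit in 1 of 6 genes. This was 16.7% (interval 3.01 to 56.4%), against 62.0% of all protein-coding genes. It was the lowest share among classes of 3 or more, a ranking of small classes that was not tested. The gene with a region was Col6a2, with 190 bp at its start and no other region of the 3 kinds. Col6a1 and Col6a3 had 3 and 2 distal regions and nothing else. The neighbours Col6a4, Col6a5 and Col6a6 on chromosome 9 had none at an end, but 3, 4 and 2 inside and 6, 6 and 4 distal, some of them shared between neighbours.

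Of the FACIT collagens, which sit on the surface of fibrils, 3 of 9 genes carried a region at an end and all 9 held one inside. The share at an end was 33.3% (interval 12.1 to 64.6%), and the interval includes the 62.0% of all protein-coding genes. Of all protein-coding genes 43.2% held one inside, and of the 20% longest, among which 5 of these 9 fall, 87.6%. Col14a1 had 343 bp at 948 bp inside its lower limit, the region nearest to the limit of 1 kb among those counted, and 13 distal regions, of which 11 lay beyond the lower limit. Col16a1 had 101 bp beside its start. Col19a1 had 330 bp near its start. Of the 6 without, Col22a1, known from muscle to tendon junctions, held 6 regions, the widest of 1187 bp, and Col12a1 held 3. Col9a1, Col9a2 and Col9a3, the type IX chains of cartilage, held 2, 3 and 1, and Col20a1 held 2. In Col9a2, of 15.8 kb, this came to 19.0 per 100 kb, the highest value among collagen genes.

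Among the distal regions of Col19a1 was the widest of the atlas, of 3218 bp, 24.9 kb beyond its start, with a region of 983 bp before it. These touch the annotated pseudogenes Gm10925 and Gm10222, and whether reads placed there come from other copies of the sequence was not tested. Without the widest region alone, Col19a1 has 4 distal regions, the one of 983 bp still among them. The median of the collagen genes was then still 3.

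Among transmembrane collagens, Col23a1 and Col25a1 had 896 and 768 bp across their starts, and Col13a1 had 333 bp at its far end only. Col17a1, a hemidesmosome protein of skin, had none at an end, 1 inside and 4 distal, the widest of 948 bp. Col18a1, whose product carries endostatin, had 519 bp across its start, 8 regions inside and 8 distal, while its relative Col15a1 had 3 inside and no other. Col7a1, the anchoring fibril of skin, had 686 bp across its start, and its 5 distal regions all fell within the neighbouring gene Pfkfb4. Col8a1, of the cornea's Descemet membrane, had 197 and 205 bp at its start. Its partner Col8a2 had none at an end or inside and 7 distal, and Col10a1, of hypertrophic cartilage, had 1 distal region of 870 bp. Col26a1 had no region at an end but 11 inside and 8 distal, the highest total of 19, and Col28a1 had 4 inside and 1 distal.

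Over all collagen genes, 33 of 44 held a region inside, 98 in total. The median was 1.48 per 100 kb of gene, against 0 over all protein-coding genes. Collagen genes are long, with a median of 114 kb against 17.2 kb for all protein-coding genes, and 28 of them are among the 20% longest. Within that class 15 of 28 collagen genes (53.6%, interval 35.8 to 70.5%) carried a region near a limit, against 75.2%, and the median inside was 1.52 against 2.21 per 100 kb. Among the other 16 collagen genes, 6 (37.5%) did, against 58.7%. A region at an end or inside was found for 37 of 44 collagen genes (84.1%), against 73.6% of all genes, and for 27 of the 28 long ones (96.4%), against 97.0% of the 20% longest, which is near the background. Spearman's rho between length and regions inside was 0.518 over the 44 collagen genes and 0.670 over all genes, a description across genes that share neighbours. Regions inside were not gathered toward the start: in the 25 genes with a known strand, 33 of 71 lay in the first 50% of the gene, against 52.0% for all genes.

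The regions of the 3 kinds numbered 256, of which 18 counted for a pair of collagen genes. All 44 genes had at least 1, which is near the background, since 6.76% of all protein-coding genes and 0.754% of the 20% longest had none. Those at collagen ends had a median width of 330 bp, against 525 bp for all regions of the atlas at ends of protein-coding genes. Those inside had a median of 204 bp and the distal ones 220 bp, against 246 bp for all regions elsewhere. Of the 143 distal regions, 46 (32.2%) fell within another protein-coding gene, other collagen genes included. The same share was not counted over all genes. No distal region was found for 4 collagen genes, Col6a2, Col15a1, Col24a1 and Col25a1, and 12.4% of all genes had none.

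Genes that act on collagens were set beside them. Of all protein-coding genes, 62.0% had a region near a limit, and of the 20% longest 75.2%. Of 20 enzymes and chaperones that fold and modify the chains, 18 (90%, interval 69.9 to 97.2%) carried a region near a limit, among them Serpinh1, the collagen chaperone, and P4ha1, a prolyl hydroxylase. Plod2, a lysyl hydroxylase, and Fkbp10, a prolyl isomerase, had none. Colgalt1 and Plod3 had 11 regions of the 3 kinds each. Of 14 genes for the processing and crosslinking of procollagen, 8 had one, and Tgm2, Pcolce, Loxl1, Adamts14, Tll2 and Loxl4 had none. Loxl1, which is also among the fibroblast markers above, Loxl2 and Pcolce2 had 8 regions each. Of 10 collagen receptors, 7 had one, and Ddr2, Lair1 and Gp6 had none. Ddr1, a receptor kinase, had 13 regions and Itga11 11. Of 16 partners of type IV collagen in basement membranes, 11 had one (68.8%). These included Lama1, Lamb1 and Lamc1, the chains of laminin-111, as well as Nid1 and Hspg2, and Lamc1 had 17 regions in all and Hspg2 16. Lamb3, Lamc3, Lama2, Pxdn and Lama3 had none. The intervals were 32.6 to 78.6% for the processing genes, 39.7 to 89.2% for the receptors and 44.4 to 85.8% for the basement membrane partners. Each includes the share of all genes, so these counts are near the background and are no result about these lists.

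**Figure D4:**
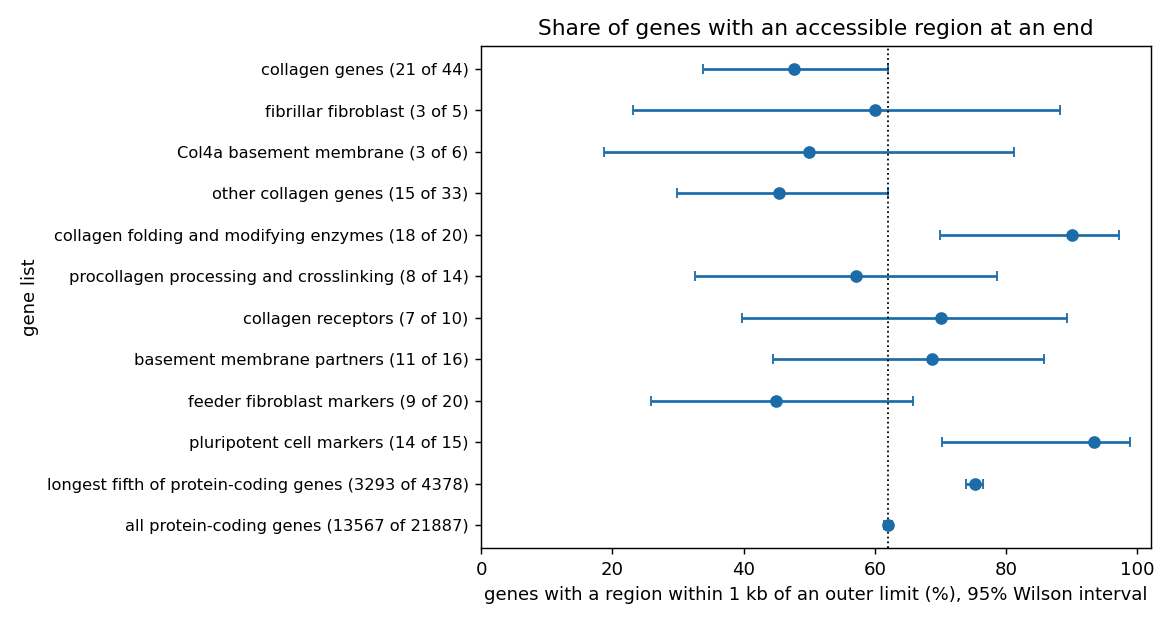
Percentage of genes with a region within 1 kb of an outer limit, with 95% Wilson intervals. Rows are the collagen genes, the fibrillar fibroblast and Col4a classes, and the other collagen genes pooled. Lists of related and marker genes follow, with the longest and all protein-coding genes at the bottom. The dotted line is the share of all protein-coding genes, 62.0%. The interval of the collagen genes ends at this line. Those of the folding and modifying enzymes, the pluripotent cell markers and the longest protein-coding genes lie above it.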

How the data were processed

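ATAC-seq libraries of mouse pluripotent stem cells were processed by the authors. Per the submitters' processing notes, MACS2 (2.1.1), Bowtie2, cutadapt, bedtools, SAMtools and Picard were used, with build GRCm38 (mm10). The sources used here do not state their settings, any Tn5 shift or the way libraries were combined. If regions of every library were kept, a region open in a single library counts like one open in all. The authors deposited the start and end of each region, in base pairs, with no value per library, so depth is unknown and no groups were compared.

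Regions (counted from 1) were set against RefSeq gene limits of GRCm38.p6 with pandas 2.3.3 in Python 3.11.15. A region at an end had at least 1 bp within 1 kb of either outer limit. A region inside touched the gene elsewhere. A distal region lay outside the gene, within 50 kb, and at no protein-coding gene's end. Strand and 300-base windows came from RefSeq start sequences. The counting code was tested on simulated data. Named were all fibrillar fibroblast and Col4a genes, the other collagen genes by their state at the ends, those with the most or widest regions, and in related lists the genes with no region at an end and the 2 with the most regions, ties included. A few others, and the fibroblast markers with a region at an end, were named after their values were seen. A withheld item is not reported here. Members and lists were chosen with earlier results of these data known. Alternatives changed the end distance, the distal window, the minimum width of regions and the make-up of the classes.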

Additional observations from a re-analysis of the deposited data

How the results depend on the processing

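Of 43 alternatives run, 34 stayed within the interval of the reported share or within 1.5 times the reported median, and 9 moved beyond it. With ends of 500 bp, the fibrillar fibroblast count was 1 of 5 (20%) in place of 3, since the regions at Col1a1 and Col5a2 lie over 500 bp from the limit. The Col4a count stayed at 3 of 6. With a region anywhere in the gene counted too, which was tried only once the data had been seen, the shares were 84.1% for collagen genes and 100% for Col4a genes, against 73.6% for all genes. Among the 20% longest genes, which include all 6 Col4a and 28 collagen genes, it was 96.4% for collagen genes and 97.0% for all genes. The median of distal regions per collagen gene was 1 within 25 kb and 6 within 100 kb, equal to all genes in both cases. Within 100 kb it was 5 for fibrillar fibroblast and 3 for Col4a genes. With regions inside the gene counted as distal, it was 2.5 for Col4a genes. With regions of at least 150 bp only, the median inside collagen genes was 0.842 per 100 kb. No paired analysis was possible because only positions pooled over the libraries were used, and no replicate could be left out either. Small classes of 5 and 6 genes limit every comparison between them.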
